A study of Rattus norvegicus with 24 samples.

Results

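RNA levels of 6 genes of the rat major histocompatibility complex (MHC) were examined in cultured skin. The genes belong to 2 regions that hold genes of the epidermis. They are *Ly6g6c*, *Ly6g6d* and *Ly6g6e* of the Ly6g6 cluster in the class III region, and *Spr1*, *Cdsn* and *Hcr* of the psoriasis susceptibility region Psors1. The members are all probes that the study's list of MHC probes assigns to these 6 symbols. All 34 listed probes were found on the array, 30 of them designed for this array and 4 taken from the Agilent catalog. The 6 genes stand among 218 MHC genes and 7231 named genes of the array.

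The samples were skin explants, small pieces of paw skin kept in culture, from 12 male BN rats aged 15 weeks. Each rat gave 1 explant co-cultured for 3 days with syngeneic BN lymphocytes and 1 co-cultured with allogeneic PVG lymphocytes. Both kinds of lymphocytes came from a 7-day mixed lymphocyte reaction, in which spleen cells were cultured with irradiated BN spleen cells. The allogeneic culture models the graft-versus-host reaction of skin, in which donor T cells attack host tissue, and the explant has no blood supply of its own. RNA of both explants of a rat was amplified and hybridized together on 2 two-color arrays with exchanged dyes, which gave 24 arrays. The comparison asks which genes of the skin change their RNA level when the lymphocytes are foreign to it.

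The Ly-6 proteins are small, cysteine-rich molecules that are mostly anchored to the cell surface by a lipid. *Ly6g6c*, *Ly6g6d* and *Ly6g6e* encode such proteins and lie next to each other, and in the RefSeq annotation of the rat assembly GRCr8 *Ly6g6e* lies within the span given for *Ly6g6d*. *Cdsn* encodes corneodesmosin, a glycoprotein that holds the cells of the horny layer together and is cleaved when they are shed. *Spr1*, named Psors1c2 in RefSeq, encodes a small proline-rich protein of unknown function and lies between *Cdsn* and *Hcr*. *Hcr*, named Cchcr1 in RefSeq, encodes a coiled-coil protein. The Psors1 region is the main susceptibility locus for psoriasis in humans.

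The probes of a gene often covered the same site, so their number overstates how much of a transcript was sampled. Each probe had 60 bases. The 5 custom probes of *Ly6g6e* were shifted against each other by only 1 to 6 bases, and each held the letters AATAAA, the usual polyadenylation signal. A catalog rat probe of the same gene that is not in the study's list overlapped custom probe 5 by 18 bases. The following stretches show both sites of *Ly6g6e*, with these letters in capitals in the first and the bases shared with custom probe 5 in capitals in the second.
Ly6g6e, custom site: tggggagccataaagagtgtatttAATAAA
Ly6g6e, catalog site: gagacttggtgcCTGAGGGTCTCAAGAACA

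The *Ly6g6d* probes formed 2 sets. Custom probes 1, 2 and 3 were shifts of one site and custom probes 4 and 5 shifts of another. These sites are shown because the first was near background on many arrays and the second was not. The 20 bases shared by custom probes 1 and 4 are in capitals.
Ly6g6d, custom 1: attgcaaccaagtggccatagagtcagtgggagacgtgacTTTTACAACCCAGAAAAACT
Ly6g6d, custom 4: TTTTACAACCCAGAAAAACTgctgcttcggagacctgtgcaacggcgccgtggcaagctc

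The 4 catalog probes of *Spr1* and *Hcr* carry mouse transcript identifiers in the array files, so they tested the rat RNA with mouse sequence. Catalog probe 2 of *Spr1* shared 45 bases with custom probe 1 and differed at 2 of them. The catalog probe of *Hcr* shared 35 bases with custom probe 3 and differed at 4 of them. The aligned stretches follow, with the differing bases in capitals.
Spr1, catalog 2 (mouse): aattttccctaatCccttAgttcccttcct
Spr1, custom 1 (rat): aattttccctaatTccttCgttcccttcct
Hcr, catalog 1 (mouse): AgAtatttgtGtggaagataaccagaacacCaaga
Hcr, custom 3 (rat): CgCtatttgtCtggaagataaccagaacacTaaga

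Catalog probes 1 and 3 of *Spr1* had the same sequence. Custom probe 1 of *Ly6g6c*, custom probe 2 of *Cdsn* and custom probe 1 of *Hcr* also held AATAAA, as did 8 of the 34 member probes and 5.42% of all 8453 probes when the letters were searched on the probe strand only. These stretches are shown because the probes of *Cdsn* and *Hcr* among them are 2 of the 4 that differed from the other probes of their gene in the test given further on, a count that was not stable. The position of the probes along the transcript was not analysed here. The AATAAA is in capitals.
Ly6g6c, custom 1: cctatcctgagaAATAAAtgtcagtgtcta
Cdsn, custom 2: tggacagggctcAATAAAcgttgtgaactt
Hcr, custom 1: aactctgtactgAATAAAgatggctggaat

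The scanner marked 78.3 to 99.7% of the probe spots per array as well above background in Cy3 and 74.8 to 99.9% in Cy5. Array 1 of rat 10 was far brighter than the others, with a median intensity of 6668 in Cy3 and 25642 in Cy5, against at most 216 and 415 on the other 23 arrays. The arrays lay on 3 slides with 4 rats each. Nothing in the files gives a count behind a spot, so precision rests on the 12 rats. Of the array's named probes, few belonged to genes that define keratinocytes. The 4 basal markers found were above background, and *Casp14*, the caspase of the cornifying epidermis, was the single suprabasal marker found. The keratins and the envelope proteins of the horny layer that were searched for were not found among these probes.

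Of the 34 member probes, 17 changed at an adjusted p under 0.05 in limma. The allogeneic-labeled sample had the higher level for 9 of them and the lower level for 8. Over all 8453 probes 17.3% changed, 8.78% being higher and 8.48% lower. All 5 probes of *Ly6g6e* and 4 of 6 probes of *Hcr* were higher, and all 8 probes of *Spr1* were lower. No probe of *Ly6g6c*, *Ly6g6d* or *Cdsn* passed, with adjusted p between 0.0765 and 0.98. At an unadjusted p under 0.05 in limma 2 probes of *Ly6g6c*, 0 of *Ly6g6d* and 1 of *Cdsn* would count. Over all genes, 2091 of 7231 would count at that threshold. An ordinary t statistic and an exact signed-rank test, both adjusted, called 0 probes of *Ly6g6c*, *Ly6g6d* or *Cdsn*. These tests called 1370 and 1645 of all 8453 probes. At the level of genes, 3 of the 6 passed, beside 16.2% of all 7231 genes.

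Signs follow the dyes in the sample labels throughout, and a positive log2 ratio means more RNA in the allogeneic-labeled sample. This direction is the opposite of the one the study gives, for *Ly6g6e* and *Spr1* and also for genes named further on such as *RT1-CE16*. The sizes differ as well. The study places *Ly6g6e* and *Spr1* past its threshold for a strong fold change, whereas their log2 ratios here were smaller, at 0.60 and -0.51. In the study's real-time PCR on part of these explant pairs, nearly all genes tested kept the study's direction. There *Ly6g6e* was lower and *Aif1* higher in the allogeneic explants, and *Spr1* was not tested. By the labels *Aif1* had a log2 ratio of -1.27 here. The PCR also gave the T cell gene *Cd3z* as higher. Here the same gene, under the name *Cd247*, had a log2 ratio of -0.07 ± 0.16 (SD, n = 12). It did not pass (adjusted p = 0.289 in limma) and was well above background in both explants on only 14 of 24 arrays. The T cell markers called here were other genes, and all of them were lower. Every higher and lower in the text, neighbours, lists and markers included, therefore holds only as far as these labels do. With the direction turned, every ratio and every difference between genes given here would change its sign, so that higher reads as lower, while its size, error and p would stay.

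**Figure D1:**
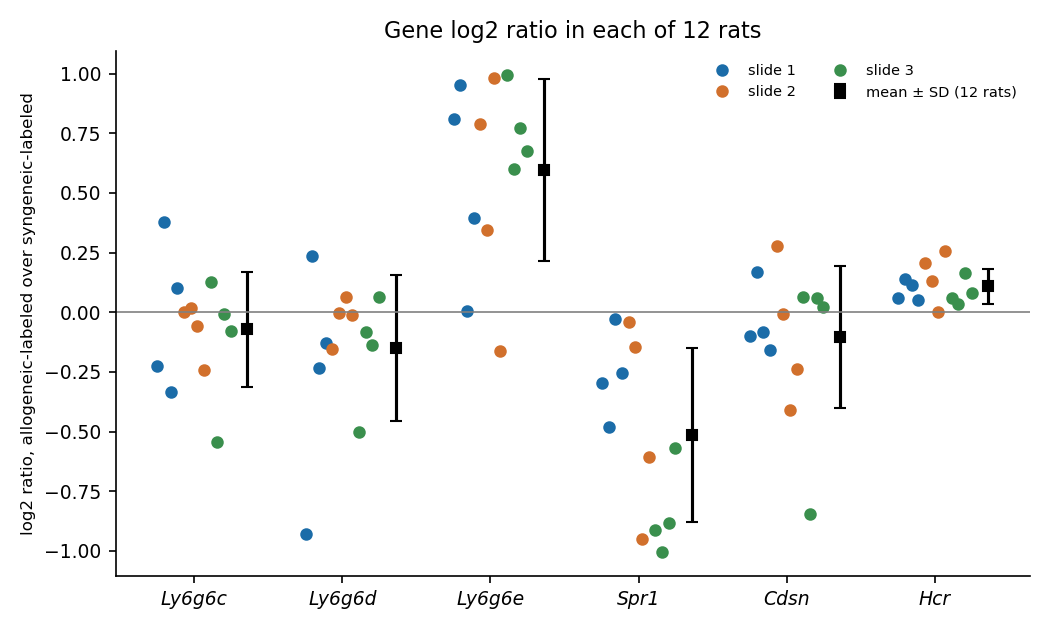
Mean log2 ratio over the probes of a gene (allogeneic-labeled over syngeneic-labeled, y axis) in each rat, colored by slide, with the mean and SD over 12 rats as black squares. All rats but 1 lie above 0 for *Ly6g6e* and all 12 below 0 for *Spr1*, while *Hcr* lies close above 0.

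*Ly6g6e* had the largest ratio in size of the 6 genes. The log2 ratio was lowest in rat 8 at -0.16, had a median of 0.72 and was highest in rat 9 at 0.996. It was above 0 in 11 of 12 rats, and rat 3 lay at 0.0049. The mean was 0.60 ± 0.38 (SD, n = 12), a 1.51-fold higher level in the allogeneic-labeled explant, with an adjusted p of 0.00199 in limma. The 5 custom probes ranged from 0.56 to 0.61, with adjusted p between 0.00148 and 0.00218. The catalog probe outside the list gave 0.62 ± 0.37 (SD, n = 12, adjusted p = 0.00116 in limma) from a site that shares few bases with the custom one. The dye orientations gave similar values. The mean was 0.60 ± 0.40 (SD, n = 12) with the allogeneic sample in Cy5 and 0.59 ± 0.39 with it in Cy3, and the sign was the same in both orientations in 11 of 12 rats. The means within slides 1, 2 and 3 were 0.54, 0.49 and 0.76.

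The intensity of *Ly6g6e*, on a log2 scale and averaged over its probes, lay between 9.00 and 10.44 (median 10.02) in the allogeneic-labeled explants and between 8.39 and 10.09 (median 9.49) in the syngeneic-labeled ones. The groups overlapped, but 4 allogeneic-labeled explants lay above every syngeneic-labeled one. Rat 10 was lowest in both. The change was therefore visible within rats and not as a separation of the groups.

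*Ly6g6c* and *Ly6g6d*, its neighbours and relatives, did not pass the test. *Ly6g6c* ranged from -0.54 in rat 10 over a median of -0.03 to 0.38 in rat 2, with a mean of -0.07 ± 0.24 (SD, n = 12, adjusted p = 0.518 in limma). It was above 0 in 5 rats and below in 7, and the mean was -0.03 without rat 10. Its custom probes 1, 2 and 3 averaged -0.02 ± 0.29 (SD, n = 12), and custom probes 4 and 5 averaged -0.15 ± 0.21. The catalog probe outside the list, which shares 57 bases with custom probe 3, gave -0.03 ± 0.29 (SD, n = 12). All probes of *Ly6g6c* were well above background on all 24 arrays.

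*Ly6g6d* ranged from -0.93 in rat 1 over a median of -0.10 to 0.24 in rat 2, with a mean of -0.15 ± 0.31 (SD, n = 12, adjusted p = 0.254 in limma). It was below 0 in 9 of 12 rats, and the mean was -0.08 without rat 1. With the allogeneic sample in Cy3 the mean was -0.24 ± 0.29 (SD, n = 12, adjusted p = 0.0368 in limma), and with it in Cy5 it was -0.06 ± 0.34 (adjusted p = 0.627). The Cy5 value was the higher one in all 12 rats. On the processed signals of the scanner software the mean was -0.41 (adjusted p = 0.21 in limma), and custom probes 1, 2 and 3 were well above background on only 15 or 16 of 24 arrays in each explant.

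The level of *Ly6g6d* differed between rats far more than between the explants of a rat. Both explants of a rat share its 2 arrays, so differences between rats and between arrays cannot be told apart here. The log2 intensity in the syngeneic-labeled explant was 9.91 in rat 11, 9.30 in rat 12, 8.86 in rat 8 and 8.70 in rat 6. In the same rats the allogeneic-labeled explants gave 9.77, 9.37, 8.85 and 8.69. In the other 8 rats both explants lay between 6.62 and 7.86. The SD over rats was 1.15 in the allogeneic-labeled and 1.09 in the syngeneic-labeled explants, against 0.31 for the ratio within rats. The 4 rats with the high level lay on slides 2 and 3. No label separates them from the others. In this amplified RNA of whole explants, fewer cells of a type and less RNA per cell cannot be told apart.

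**Figure D2:**
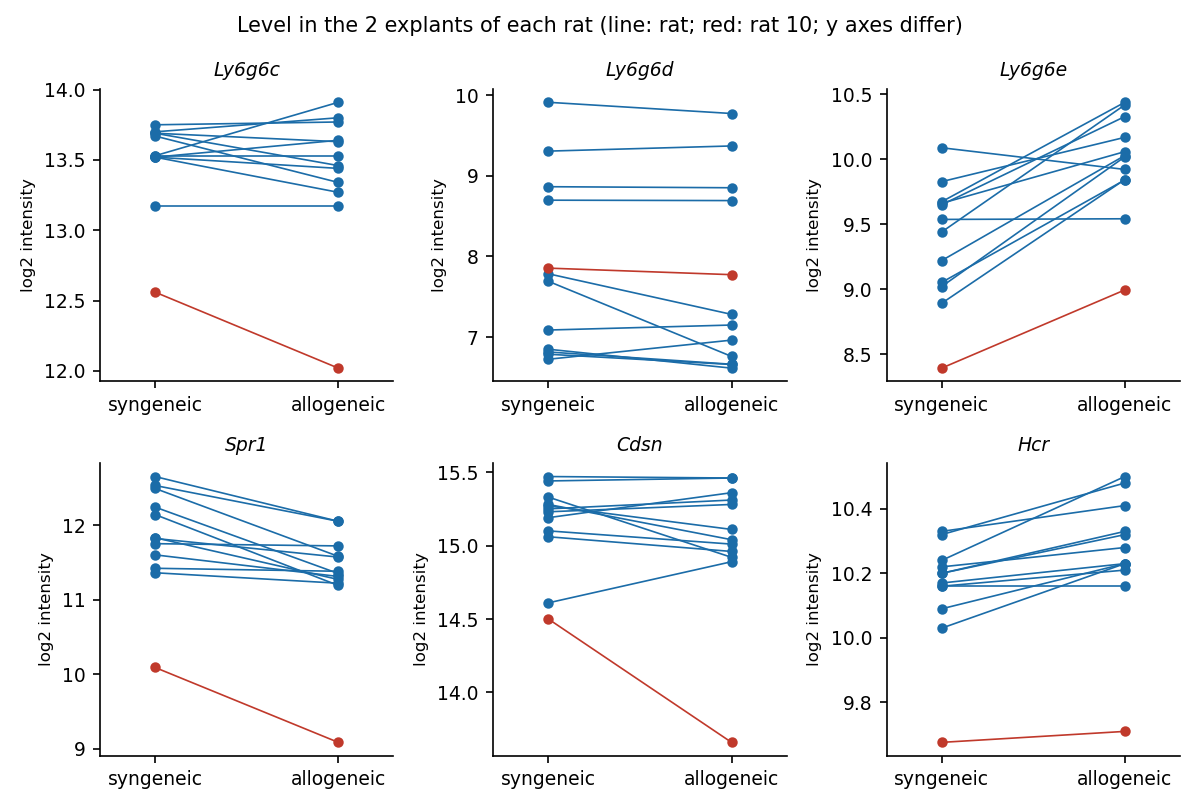
Log2 intensity (y axis, a scale for each gene) of the syngeneic-labeled and the allogeneic-labeled explant, joined by a line for each of 12 rats, with rat 10 in red. The lines of *Ly6g6e* mostly rise and those of *Spr1* fall, whereas *Ly6g6d* shows rats 6, 8, 11 and 12 above the rest in both explants.

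*Spr1* was lower in the allogeneic-labeled explant in all 12 rats. The log2 ratio was lowest in rat 10 at -1.004, had a median of -0.52 and was highest in rat 3 at -0.03. The mean was -0.51 ± 0.36 (SD, n = 12), a 1.43-fold higher level in the syngeneic-labeled explant, with an adjusted p of 0.0038 in limma. The 8 probes ranged from -0.56 to -0.46. The rat-designed probes averaged -0.54 (adjusted p = 0.00457 in limma) and the mouse-designed ones -0.47 (adjusted p = 0.00316) in limma, and no *Spr1* probe differed from the other probes of the gene in the test given further on. The pair of catalog probes with identical sequence differed by 0.0025 ± 0.054 (SD, n = 12, exact sign permutation p = 0.894), and by at most 0.124 in any rat.

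The mean *Spr1* ratio was negative in both dye orientations and on all 3 slides, with different sizes. The mean was -0.39 ± 0.36 (SD, n = 12) with the allogeneic sample in Cy5 and -0.64 ± 0.37 with it in Cy3, and the Cy5 value was higher in all 12 rats. In Cy5 the ratio was slightly above 0 in rats 3 and 5, so that 10 of 12 rats had the same sign in both orientations. The average of both orientations removes a dye effect of this kind. Within slides 1, 2 and 3 the means were -0.26, -0.44 and -0.84, and with the slide as a block the adjusted p was 0.0018 in limma. The log2 intensity lay between 9.09 and 12.05 (median 11.37) in the allogeneic-labeled explants and between 10.09 and 12.65 (median 11.83) in the syngeneic-labeled ones. These ranges overlapped, and 5 syngeneic-labeled explants lay above every allogeneic-labeled one.

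*Cdsn*, the next gene to *Spr1*, did not share its ratio. The log2 ratio of *Cdsn* ranged from -0.85 in rat 10 over a median of -0.04 to 0.28 in rat 5. Its mean was -0.10 ± 0.30 (SD, n = 12, adjusted p = 0.437 in limma), with 5 rats above 0 and 7 below, and -0.04 without rat 10. The sign of the mean depended on the dye. It was 0.02 ± 0.40 (SD, n = 12, adjusted p = 0.909 in limma) with the allogeneic sample in Cy5 and -0.23 ± 0.24 (adjusted p = 0.0226) with it in Cy3, and only 5 of 12 rats had the same sign in both orientations. Its log2 intensity was between 13.66 and 15.46 in the allogeneic-labeled and between 14.50 and 15.47 in the syngeneic-labeled explants, and all 5 probes were well above background on all 24 arrays.

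*Hcr* was slightly higher in the allogeneic-labeled explant in all 12 rats. The log2 ratio ranged from 0.0020 in rat 7 over a median of 0.10 to 0.26 in rat 8, with a mean of 0.11 ± 0.07 (SD, n = 12, adjusted p = 0.00588 in limma), a 1.08-fold difference. The median over all 7231 genes was 0.01. The rat-designed probes ranged from 0.09 to 0.17, and 4 of these 5 passed the test. The mouse-designed probe gave 0.03 ± 0.03 (SD, n = 12, adjusted p = 0.165 in limma as the only probe of the gene). Both orientations gave similar means, with 0.12 ± 0.10 (SD, n = 12) in Cy5 and 0.10 ± 0.08 in Cy3. The means within slides 1, 2 and 3 were 0.09, 0.15 and 0.09.

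**Figure D3:**
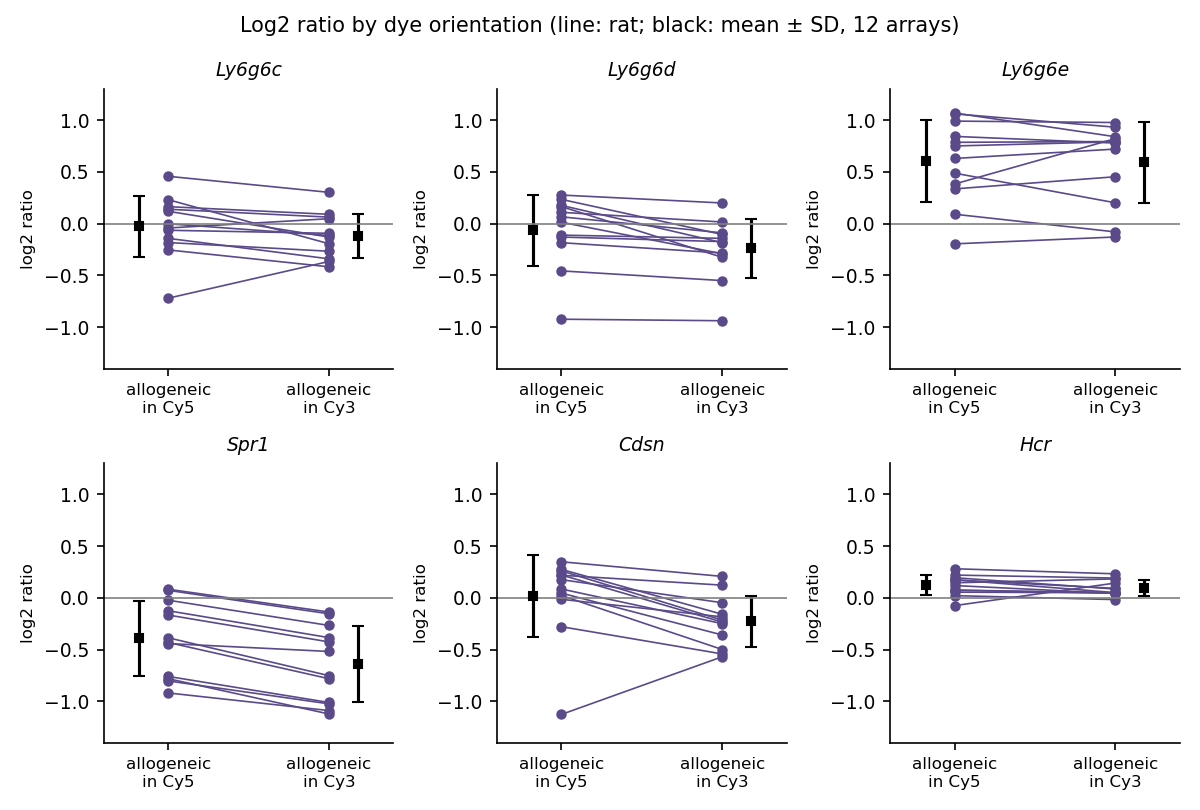
Log2 ratio (y axis) of each gene on the array with the allogeneic sample in Cy5 and on that with it in Cy3, joined by a line for each rat, with the mean and SD over 12 arrays in black. The means are alike in both orientations for *Ly6g6e* and *Hcr*, although single rats differ. The lines fall in all 12 rats for *Spr1* and *Ly6g6d*. Only 5 of 12 rats for *Cdsn* and 7 of 12 for *Ly6g6d* have the same sign in both orientations.

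Each probe was also set against the mean of the other probes of its gene within rats, by an exact permutation of signs over 12 rats with adjustment over 34 probes. Of the 34 probes, 4 differed. Custom probe 2 of *Cdsn* lay 0.13 ± 0.12 (SD, n = 12) below the others, in 11 of 12 rats (exact p = 0.00244, adjusted p = 0.0277). Custom probe 1 of *Hcr* lay 0.08 ± 0.10 above the others in 10 of 12 rats (n = 12, exact p = 0.00195, adjusted p = 0.0277). The mouse-designed probe of *Hcr* lay 0.10 ± 0.09 below the rest in 10 of 12 rats (n = 12, exact p = 0.00488, adjusted p = 0.0415). Custom probe 1 of *Ly6g6e* lay 0.04 ± 0.05 below the rest in 10 of 12 rats (n = 12, exact p = 0.00244, adjusted p = 0.0277). These differences were small beside the ratios of *Ly6g6e* and *Spr1*, and the number of probes that differed was not stable. It was 0 on the processed signals, 0 without any one of rats 1, 2, 4, 6, 8, 9, 11 or 12, and 12 without rat 10.

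**Figure D4:**
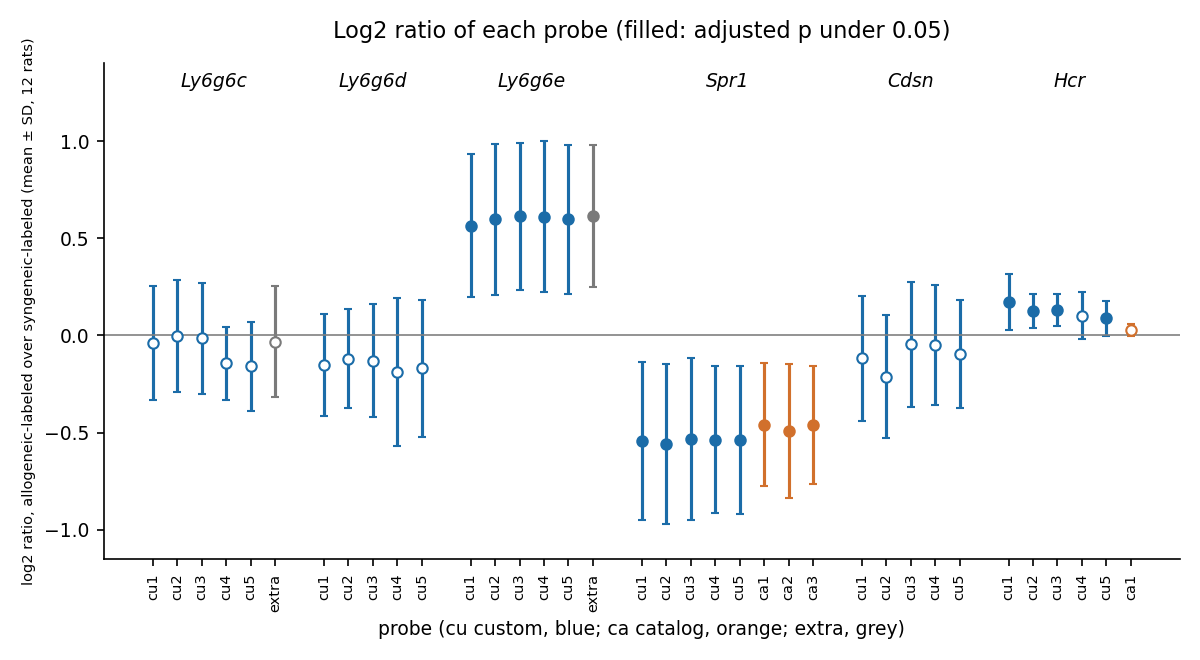
Mean log2 ratio and SD over 12 rats (y axis) of each member probe, with custom probes in blue, catalog probes in orange and the catalog probes outside the list in grey, filled where the adjusted p was under 0.05. Probes of a gene lie together, with the mouse-designed probe of *Hcr* nearest to 0 in its gene.

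The genes were then compared with each other within rats, over all 15 pairs, with an exact two-sided permutation of signs whose smallest possible p was 0.000488. Of the 15 pairs, 12 differed after adjustment. *Ly6g6e* exceeded *Ly6g6c* by 0.67 ± 0.34 (SD, n = 12, exact p = 0.000488, adjusted p = 0.00183) in all 12 rats, and *Ly6g6d* by 0.75 ± 0.52 (exact p = 0.000977, adjusted p = 0.00244) in 11 of them. The change of *Ly6g6e* was thus not seen in its nearest relatives. For *Ly6g6d* this is limited by signal near background. Its custom probes 1, 2 and 3 were well above background in both explants on only 13 of 24 arrays, and custom probes 4 and 5 on all 24. *Spr1* lay 0.41 ± 0.33 below *Cdsn* in 11 of 12 rats (n = 12, exact p = 0.000977, adjusted p = 0.00244) and 0.62 ± 0.35 below *Hcr* in all 12 (exact p = 0.000488, adjusted p = 0.00183). *Spr1* therefore differed from both of its neighbours. The widest gap was that of 1.11 ± 0.62 between *Ly6g6e* and *Spr1*, present in all 12 rats. *Ly6g6e* also exceeded *Cdsn* by 0.70 ± 0.44 in all 12 rats (n = 12, adjusted exact p = 0.00183) and *Hcr* by 0.49 ± 0.42 in 10 of 12 (adjusted exact p = 0.00824). *Spr1* lay 0.44 ± 0.41 below *Ly6g6c* in 11 of 12 rats (n = 12, adjusted exact p = 0.00824). The small ratio of *Hcr* exceeded that of *Cdsn* in 9 of 12 rats and that of *Ly6g6d* in 10 of 12 (n = 12, adjusted exact p = 0.00879 for both), the mean differences *Cdsn* minus *Hcr* and *Ly6g6d* minus *Hcr* being -0.21 ± 0.27 and -0.26 ± 0.30.

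*Ly6g6c*, *Ly6g6d* and *Cdsn* could not be told from each other. The differences were 0.08 ± 0.34 between *Ly6g6c* and *Ly6g6d*, 0.03 ± 0.21 between *Ly6g6c* and *Cdsn* and -0.05 ± 0.44 between *Ly6g6d* and *Cdsn* (SD, n = 12, exact permutation p = 0.422, 0.605 and 0.714). Of the 12 pairs, 2 were weak. The difference of 0.36 ± 0.50 between *Ly6g6d* and *Spr1* (n = 12, adjusted exact p = 0.0433) was 0.12 on the processed signals (adjusted exact p = 0.693), and that of -0.18 ± 0.24 between *Ly6g6c* and *Hcr* had an adjusted exact p of 0.0393. Leaving out single rats left 10 or 11 pairs that differed. The first of these weak pairs was lost without any one of rats 2, 4, 6, 7, 8, 9, 10, 11 and 12 (0.30 to 0.45 over all 12 omissions), and the second without any one of rats 1, 3, 5, 6, 8, 10, 11 and 12 (-0.22 to -0.14 over all 12).

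Across rats, the ratios of the 6 genes showed no relation that passed the adjustment over 15 pairs (100000 permutations), and 1 pair had an unadjusted permutation p under 0.05. This was that of *Ly6g6c* and *Cdsn*, with Pearson's r = 0.71 (permutation p = 0.0113, adjusted p = 0.169, n = 12) and Spearman's rho = 0.64 (permutation p = 0.0304, adjusted p = 0.411). Without rats 2 and 10, which lay farthest from the median of *Ly6g6c*, r was 0.32. Such an omission narrows the range of *Ly6g6c* and can lower r by itself. Without rat 10 alone r was 0.46, and without rat 2 alone 0.70. Within slides r was 0.70. *Spr1* and *Cdsn* gave r = 0.51 (permutation p = 0.0866, adjusted p = 0.406, n = 12), and 0.43 without rats 3 and 5, with rho = 0.38 (permutation p = 0.226, adjusted p = 0.486). *Ly6g6e* and *Spr1* gave r = -0.40 (permutation p = 0.192, adjusted p = 0.481, n = 12), and -0.45 without rats 3 and 8, with rho = -0.38 (permutation p = 0.219, adjusted p = 0.486). The rats with the strongest change of *Ly6g6e* were therefore not shown to be those with the strongest change of *Spr1*. All genes of a rat share its arrays and the amplification of its RNA.

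For each member the 3 genes with the most similar ratios over 12 rats were taken from 6115 others with a detected probe. This is a description, since the closest of so many genes will always lie close. Each r is followed by its value without the 2 rats farthest from the median of the member. For *Ly6g6e* they were *Galr2*, *Wwox* and *Bckdk* with r = 0.95, 0.94 and 0.93, and 0.83, 0.77 and 0.79 without those rats. For *Spr1* they were *Sipa1l3*, RGD1563050 and *Rnf39* with r = 0.95, 0.90 and 0.89, and 0.94, 0.88 and 0.88 without them. For *Hcr* they were *Or11g26b*, *Gabarapl1* and *Ctf1* with r = 0.87, 0.86 and 0.85, and 0.78, 0.87 and 0.76 without them. For *Ly6g6c* they were *Eif5a*, LOC684822 and LOC687346 with r = 0.93, 0.88 and 0.87, and 0.89, 0.72 and 0.66 without them. For *Ly6g6d* they were RGD1563887, LOC682902 and *Or4f7* with r = 0.94, 0.87 and 0.79, and 0.84, 0.56 and 0.75 without them. For *Cdsn* they were *Or9s23b*, *Btnl6* and *Prkd2* with r = 0.94, 0.93 and 0.92, and 0.76, 0.69 and 0.71 without them.

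Among the other genes beside the Ly6g6 cluster, 1 of 7 passed the test, beside 16.2% of all 7231 genes. *Bat5*, also known as Abhd16a and encoding a lipase, was higher by 0.22 ± 0.13 (SD, n = 12, adjusted p = 0.00153 in limma) in all 12 rats. The rest did not pass. *Csnk2b*, the regulatory subunit of casein kinase II, had a mean of 0.27 ± 0.95 (SD, n = 12), with 6 rats above 0. Its median was 0.02, with a lowest value of -0.22 and a highest of 3.255, from 1 probe. *Ly6g5c* and *Ly6g5b*, the other Ly-6 genes of the region, had means of 0.09 ± 0.17 and -0.0022 ± 0.043. *Ddah2*, a dimethylarginine dimethylaminohydrolase by name, had a mean of -0.05 ± 0.12, *G6f* one of -0.05 ± 0.10 and *G6b*, a receptor of platelets, one of -0.0094 ± 0.032. The median of the 7 genes was -0.0022, which is the value of *Ly6g5b*, beside 0.01 over all genes. *Ly6g5b* and *G6b* were well above background in both explants on only 7 and 3 arrays. Their ratios therefore cannot show whether their levels changed. With such dim probes left out, 5 of the 7 genes remained, with a median of 0.09.

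Of 5 other genes beside *Spr1* and *Hcr*, 1 passed, beside 16.2% of all 7231 genes. *RT1-CE16*, an MHC class I gene, was lower by a log2 ratio of -0.27 ± 0.16 (SD, n = 12, adjusted p = 0.00145 in limma) in all 12 rats. The others were *Pou5f1*, a transcription factor of stem cells, with -0.03 ± 0.04, *Tcf19* with 0.07 ± 0.16, *Stg* with -0.07 ± 0.13 and the transcript CB741658 with 0.00050 ± 0.024. CB741658 was well above background in both explants on only 2 arrays, so its ratio cannot show whether its level changed. The called neighbours had opposite signs.

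**Figure D5:**
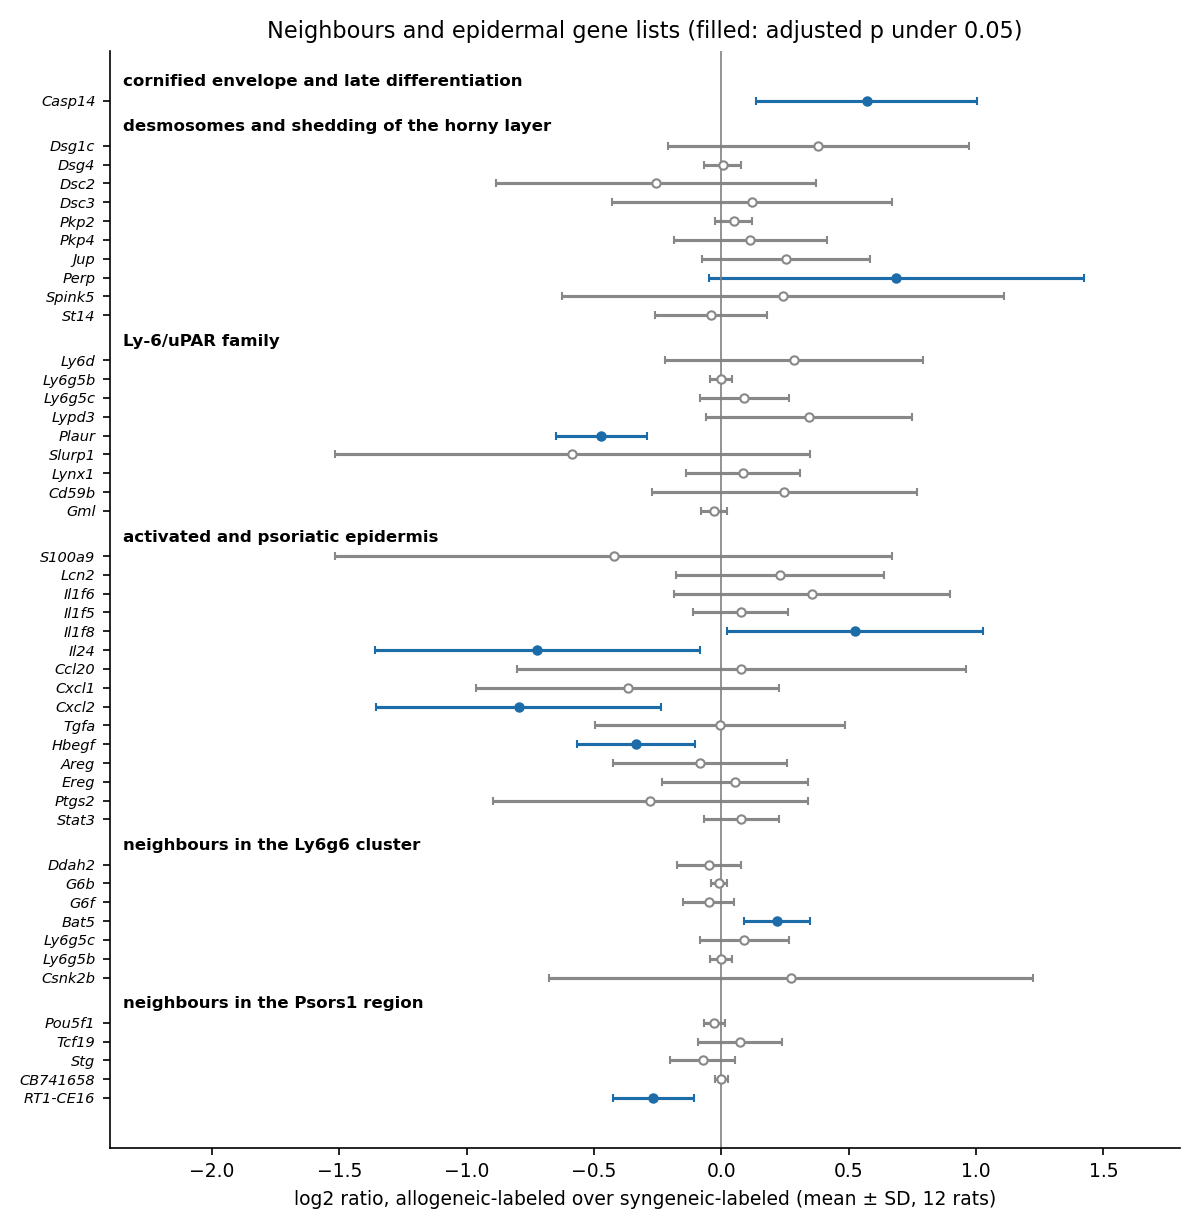
Mean log2 ratio and SD over 12 rats (x axis) of the measured genes of 4 epidermal lists and of both groups of neighbours, filled and blue where the adjusted p was under 0.05. Called genes are few in each list and lie on both sides of 0.

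The lists of epidermal genes were sparse on this array, and their counts stand beside 16.2% of all 7231 genes that passed. Of 37 genes of the cornified envelope and late differentiation, *Casp14* was the single one measured, and it was higher by 0.57 ± 0.43 (SD, n = 12, adjusted p = 0.00552 in limma) in 11 of 12 rats. Of 10 measured genes of desmosomes and of the shedding of the horny layer, where corneodesmosin acts, 1 was higher, 0 were lower and 9 did not pass, with a median of 0.12. The gene that passed was *Perp*, a membrane protein of desmosomes, with 0.69 ± 0.74 (SD, n = 12, adjusted p = 0.0333 in limma). *Spink5*, an inhibitor of the proteases that cleave corneodesmosin, had a mean of 0.24 ± 0.87 and did not pass. Of 9 other genes of the Ly-6/uPAR family, 0 were higher, 1 was lower and 8 did not pass, with a median of 0.09. Among the latter, *Gml* and *Ly6g5b* were well above background in both explants on only 4 and 7 arrays. Their ratios therefore cannot show whether their levels changed. With dim probes left out 7 genes remained, of which 1 was higher and 1 lower. *Plaur*, the urokinase receptor, was the one that was lower, by a log2 ratio of -0.47 ± 0.18 (SD, n = 12, adjusted p = 0.000104 in limma) in all 12 rats. *Lypd3*, a Ly-6 gene of keratinocytes, had 0.34 ± 0.40 with an adjusted p of 0.0507.

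Of 15 measured genes of activated and psoriatic epidermis, 1 was higher, 3 were lower and 11 did not pass, with a median of -0.0044. Over all 7231 genes 16.2% passed, so counts this small do not set the list apart. The chemokine gene *Cxcl2* was lower with -0.79 ± 0.56 (SD, n = 12, adjusted p = 0.00368 in limma), the cytokine gene *Il24* with -0.72 ± 0.64 (adjusted p = 0.0126) and the growth factor gene *Hbegf* with -0.33 ± 0.23 (adjusted p = 0.00365). *Il1f8*, a cytokine of the interleukin-1 family, was higher with 0.52 ± 0.50 (adjusted p = 0.0193).

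Some markers of cell types passed the test in the same comparison, with signs again by the dye labels, beside 16.2% of all genes. Of 4 basal keratinocyte markers 2 were higher and 0 lower, and their summed intensity was 17630 to 60640 in the allogeneic-labeled explants and 18970 to 53210 in the syngeneic-labeled ones, being higher in the former in 10 of 12 rats. The one suprabasal marker, *Casp14*, gave 181 to 461 against 129 to 318. Of 11 T cell markers 0 were higher and 4 lower, with sums of 2752 to 6390 against 3092 to 8314, and of 9 macrophage markers 1 was higher and 3 were lower, with sums of 17040 to 35880 against 15610 to 45630. Of 7 endothelial markers 3 were higher and 0 lower, of 4 fibroblast markers 1 was higher and 1 lower, and of 2 muscle and 2 melanocyte markers 0 were higher and 0 lower in limma, also at an unadjusted p under 0.05. Summed intensities of these 4 lists were 7226 to 23420, 7622 to 66830, 866 to 14630 and 377 to 893 in the allogeneic-labeled explants, and 6001 to 20390, 6855 to 68480, 928 to 5757 and 297 to 814 in the syngeneic-labeled ones. No marker measured was below background on all arrays. The part of these shifts in the ratios of *Ly6g6e*, *Spr1* and *Hcr* was not tested.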

How the data were processed

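Each rat gave 2 arrays with exchanged dyes, and groups, rats and dyes were taken from the sample labels. Per the file headers, the deposited scanner files hold mean and local background intensities per spot, extracted by Feature Extraction 9.5.1.1 without normalization, and processed intensities after background subtraction and dye normalization. A series table of log2 ratios was also deposited by the authors. Its columns are titled Stimulated vs. NonStimulated, which does not name the allogeneic or the syngeneic explant. All 24 columns correlated positively (0.704 to 0.954) with the processed ratios turned to allogeneic over syngeneic. The series table therefore ran in the direction of the dye labels, and it served as an alternative. The labels credit limma.

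Mean intensities were background-corrected by normexp (offset 50) and normalized by loess within arrays in limma 3.58.1 (R 4.3.3), without control and outlier spots. Ratios were turned by dye, averaged over spots and over both arrays of a rat, and tested against 0 over 12 rats with Benjamini-Hochberg adjustment over all 8453 probes or all 7231 genes, at 0.05. A gene is the mean of its probes. Levels were taken after loess and quantile normalization of the mean channel intensity. Probes were named by the study's probe lists (symbols and probe identifiers only), RefSeq accessions or the array file. Since both explants of a rat share an array, the comparison is within rats. The fits were tested on simulated data.

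All probes of the members and all neighbours are named, up to 4 called genes in each direction of each other list, and 3 genes of similar ratio per member. *Spink5* and *Lypd3* were named after their values were seen. Members, lists and tests were chosen with earlier results of these data known.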

Additional observations from a re-analysis of the deposited data

How the results depend on the processing

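The log2 ratios of *Ly6g6e* (0.56 to 0.67, adjusted p 0.00024 to 0.0153 in limma and the other tests) and *Spr1* (-0.64 to -0.39, adjusted p 0.000572 to 0.00964) kept their sign and their call under every alternative run for them, 25 for the former and 27 for the latter, which covered background correction, normalization, dye, filter, outlier spots, slide, test, source, probes and rats. *Hcr* kept both in 26 of 27, and gave 0.029 (adjusted p = 0.165) with the catalog probe alone. With the allogeneic sample in Cy3 only, *Ly6g6d* (-0.24) and *Cdsn* (-0.23) passed and 27 member probes changed. In that setting 2500 of all 8453 probes and 2078 of all 7231 genes changed. With both orientations averaged these counts were 1459 and 1172, so calls rose over the whole array. With the allogeneic sample in Cy5 only, *Cdsn* turned to 0.019. Leaving out single rats gave 16 to 18 changed member probes, beside 1155 to 2087 of all probes. On the processed signals 1 correlation passed, that of *Cdsn* and *Hcr* (r = 0.77, adjusted permutation p = 0.0465). Weak correlations turned sign, to 0.047 for *Ly6g6d* and *Ly6g6e*, 0.13 for *Ly6g6d* and *Cdsn* and 0.091 for *Ly6g6e* and *Hcr*. Leaving out single rats gave -0.28 to 0.021 for *Ly6g6d* and *Ly6g6e*, -0.29 to 0.045 for *Ly6g6d* and *Spr1*, -0.19 to 0.020 for *Ly6g6d* and *Cdsn*, -0.22 to 0.30 for *Ly6g6c* and *Spr1* and -0.10 to 0.34 for *Ly6g6c* and *Hcr*, and -0.12 to 0.024 for the difference between *Ly6g6d* and *Cdsn*. The number of probes that differed from the rest of their gene was 0 on the processed signals and 0 to 12 without single rats. Of the Ly-6/uPAR family, 2 genes passed on the processed signals and 2 with dim probes left out, in each case 1 higher and 1 lower. Every comparison was paired within rats, since each array holds both explants of a rat, and no further block by replicate number was fitted, since the replicate numbers of the labels mark the dye orientation. The signal near background limits *Ly6g6d*, whose mean was -0.41 on the processed signals.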
